A study of Arabidopsis thaliana with 20 samples.

Results

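The light-harvesting complex superfamily of Arabidopsis thaliana was followed here as 30 genes, chosen by their locus identifiers from the 34262 genes counted in every sample. Of these, 21 encode antenna proteins. The other 9 encode stress-type relatives, a set that takes in the early light-induced proteins, the stress-enhanced proteins, the one-helix proteins, the light-harvesting-like proteins LIL3:1 and LIL3:2, and PSBS. All 30 passed the filter on low counts, so no member was lost from any test.

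Light-harvesting proteins are made in the cytosol from nuclear genes, imported into the plastid and inserted into the thylakoid membrane, where they bind chlorophylls and carotenoids. The antenna proteins pass absorbed light to photosystem I (LHCA) or photosystem II (LHCB), and their transcripts are among the most abundant of a green leaf. The stress-type relatives share related transmembrane helices but serve in photoprotection, in pigment synthesis or in the assembly of the photosystems, and some of them build up only in strong light or other stress.

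The samples were RNA of aboveground tissue from bolting Col-0 plants, in 6 groups. The T+ plants carry the PPD3-OX transgene for overexpression of PPD3, whose product is a thylakoid lumen protein related to PsbP of photosystem II, and were sampled as dwarf (n = 3) and as normal plants (n = 3). Gen1 dwarf plants (n = 3) are siblings of T+ whose genotype label reads null. Gen2, their progeny and null as well, has dwarf (n = 5) and large plants (n = 3). The wild type, WT (n = 3), has no PPD3-OX label, and 1 of its samples is labelled Col-1 in one field. All plants were grown with a day of 12 h at 22 and 20 °C. The sources used here give neither the promoter of the transgene nor the number of plants in a sample. The p-values therefore cover the variation among these samples, which may be technical in part.

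Gene counts came to 45728485 to 117753467 per sample. The level of PPD3 followed the labels, at 381 to 812 CPM (counts scaled to each library's effective size by edgeR) in the 6 T+ samples and 92.4 to 148 CPM in the other 14. The tissue carried its leaf mesophyll markers (RBCS1A, RBCS1B, RBCS2B, RBCS3B, RCA and CA1), summed, at 9885 to 28032 CPM. These markers are photosynthesis genes themselves and do not count cells. Root markers summed to at most 0.567 CPM, with EXPA7 and RHD6 at 0 in every sample, and pollen markers to at most 0.152 CPM. T+ normal 1 lay apart in a principal component analysis (25.3% and 15.5% of the variance on the first components), and the calls that end without it are given beside the results they touch.

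Promoters of 4 members are shown as examples. From T+ normal to T+ dwarf plants ELIP1 rose, and LHCA4 and LHCB4.1 fell along with other antenna genes. ELIP2 is the close relative of ELIP1 that was not called there. Each promoter is the 250 bases before the annotated gene start in TAIR10.1 (RefSeq), written 5′ to 3′ on the strand of the gene. Capitals mark matches, on either strand, to the G-box CACGTG, the I-box GATAAG, the motif CCAATC of GLK targets and the CCA1-bound motif AAAAATCT. ELIP1 lies at chr3:8085670-8085919 (minus strand), ELIP2 at chr4:8417992-8418241 (plus), LHCA4 at chr3:17495034-17495283 (minus) and LHCB4.1 at chr5:208616-208865 (plus). No other annotated gene overlaps these 4 windows.
ELIP1: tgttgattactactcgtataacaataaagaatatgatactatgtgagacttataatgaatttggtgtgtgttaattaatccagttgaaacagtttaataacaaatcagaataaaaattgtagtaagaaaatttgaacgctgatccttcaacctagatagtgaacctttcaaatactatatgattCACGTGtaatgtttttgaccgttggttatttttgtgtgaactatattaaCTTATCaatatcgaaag
ELIP2: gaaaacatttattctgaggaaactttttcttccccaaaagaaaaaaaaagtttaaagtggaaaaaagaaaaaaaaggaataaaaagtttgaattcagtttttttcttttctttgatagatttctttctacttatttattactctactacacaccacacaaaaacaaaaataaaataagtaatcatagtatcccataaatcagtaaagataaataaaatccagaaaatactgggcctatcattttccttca
LHCA4: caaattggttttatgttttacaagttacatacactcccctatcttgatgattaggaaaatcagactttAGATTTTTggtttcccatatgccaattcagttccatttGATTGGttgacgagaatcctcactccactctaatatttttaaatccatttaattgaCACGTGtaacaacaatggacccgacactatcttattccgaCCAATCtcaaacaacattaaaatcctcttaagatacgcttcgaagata
LHCB4.1: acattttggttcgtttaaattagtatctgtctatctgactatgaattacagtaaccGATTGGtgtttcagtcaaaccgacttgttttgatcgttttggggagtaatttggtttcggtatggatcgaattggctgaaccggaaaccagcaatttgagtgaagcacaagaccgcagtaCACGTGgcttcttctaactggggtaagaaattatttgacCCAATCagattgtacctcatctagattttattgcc

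The ELIP1 window holds 1 G-box and 1 I-box match, and the ELIP2 window holds no match to any of these motifs. LHCA4 has 1 G-box, 2 CCAATC matches and 1 AAAAATCT match, and LHCB4.1 has 1 G-box and 2 CCAATC matches. These 2 do not stand for all antenna genes that fell. The windows of LHCA2, LHCA5, LHCA6, LHCB1.2, LHCB3, LHCB4.3 and LHCB5, which fell too, hold no match to these motifs. Those of the other fallen antenna genes hold at least 1. Over all members, CCAATC occurs in 12 of 30 windows (40.0%) against 10.2% of the windows of 27443 nuclear protein-coding genes. The 12 are 10 antenna genes and 2 stress-type genes, SEP1 and OHP2. The G-box occurs in 7 of 30 (23.3%) against 6.49%, and every G-box also holds the ACGT core, which 44.1% of all windows have. GATAAG occurs in 5 of 30 (16.7%) against 12.3%, and AAAAATCT in 4 of 30 (13.3%) against 6.69%. Other motifs were searched too and are not in capitals. The ACGT core occurs in 17 of 30 (56.7%) and the evening element AAAATATCT in 1 of 30 (3.33%) against 2.36%. Below the share of all windows were the heat shock element GAANNTTC (2 of 30, 6.67% against 9.55%) and TATAAA (10 of 30, 33.3% against 47.3%). A match describes these letters only, since no binding was measured.

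Per length, the members spanned more than 3 orders of magnitude in WT. LHCB1.3, a subunit of the trimeric major antenna of photosystem II, stood highest, at 6596 ± 1060.0 RPKM (here CPM divided by the exon length in kilobases; SD, n = 3). LHCB1.5 (2273 ± 299 RPKM) and LHCB5 (2234 ± 355 RPKM) followed and were within each other's spread. Among stress-type genes, PSBS, the sensor of lumen acidity in energy dissipation, was highest at 599.8 ± 70.2 RPKM, close behind LHCB6 at 684 ± 141 RPKM. The lowest 3 members were ELIP1 at 19.8 ± 4.28, LHCB7 at 17.6 ± 2.76 and ELIP2 at 2.72 ± 1.69 RPKM, and the first 2 of these overlapped within their SD.

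**Figure D1:**
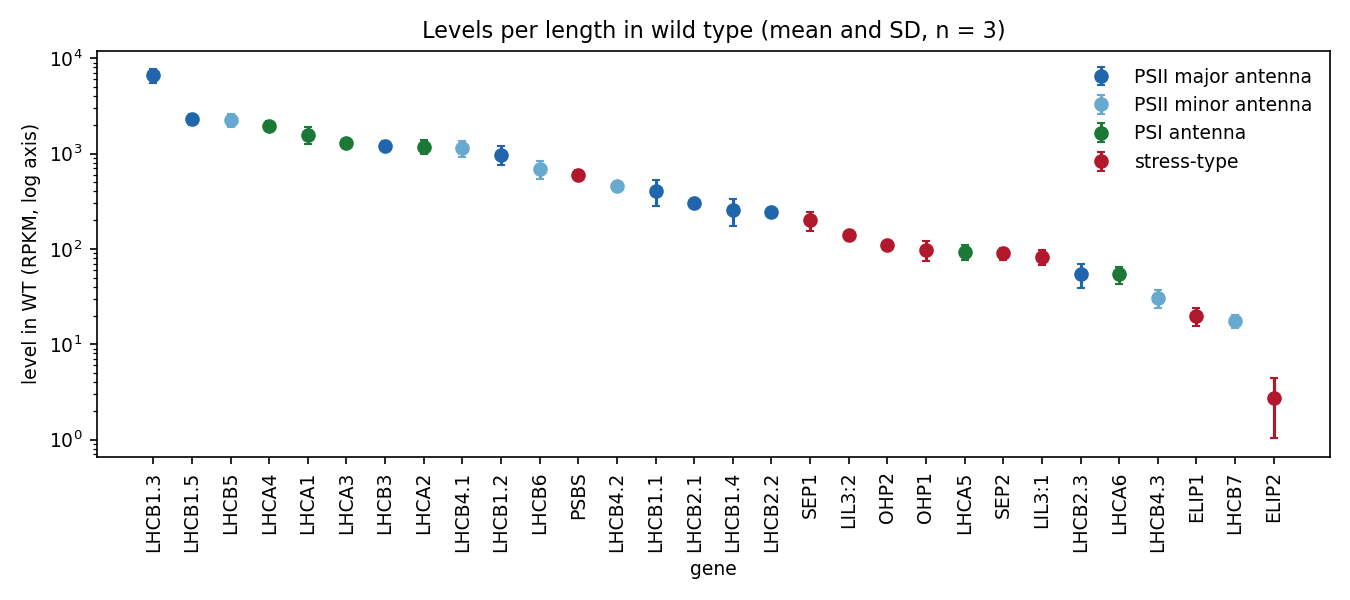
Level of each member in wild type on a scale per length (RPKM, log axis), as the mean of 3 samples with the SD as bars, coloured by role. LHCB1.3 stands at the top with 6596 RPKM and ELIP2 at the bottom with 2.72 RPKM.

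The 21 antenna genes together took 3.83 to 4.45% of all gene counts in T+ normal samples, above every dwarf sample of any genotype. Dwarf samples lay at 2.17 to 2.85% in T+, 1.97 to 2.47% in Gen1 and 2.38 to 2.87% in Gen2. WT samples held 2.61 to 3.50%, and Gen2 large samples 2.84 to 4.17%. The 9 stress-type genes summed to 2053 to 2808 CPM in T+ normal, 1708 to 1924 CPM in WT and 1446 to 1535 CPM in T+ dwarf, mostly PSBS, SEP1 and the LIL3 pair. In bulk tissue, fewer mesophyll cells and less of these RNAs per cell cannot be told apart. For 21 of the 30 members all 3 T+ normal samples exceeded all 11 dwarf samples, a split that 6.96% of the 21703 tested genes show. For 5 (LHCA4, LHCB3, LHCB4.2, LHCB5 and SEP1) they exceeded all 17 other samples, as for 1.29% of all genes, and for ELIP1 they lay below all 17, as for 0.788%.

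**Figure D2:**
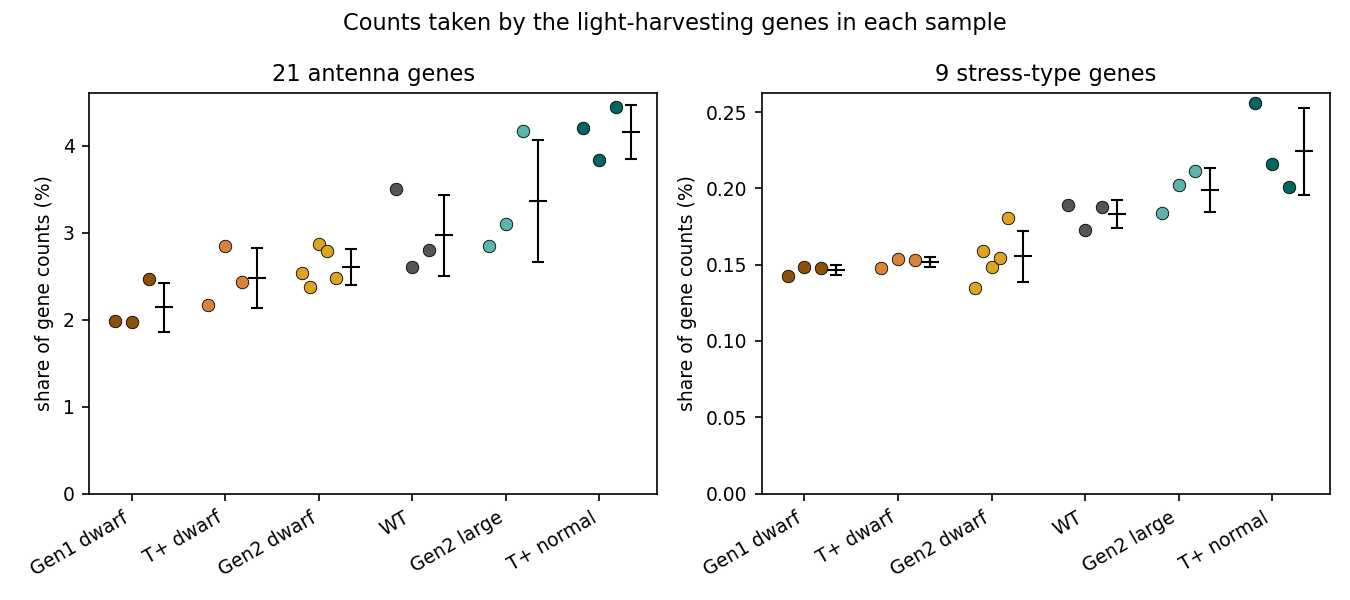
Share of gene counts taken by the antenna genes (left) and the stress-type genes (right) in each sample (points, by group), with the group mean and SD as black bars. The T+ normal samples lie above all dwarf samples in both panels, and 1 Gen2 large sample, at 4.17% for the antenna, lies apart from the other 2.

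Levels varied across the 6 groups for 24 of the 30 members at an edgeR adjusted p under 0.05 (F test over the groups, Benjamini-Hochberg over all genes), against 21.2% of all tested genes. They were all 6 photosystem I antenna genes, 6 of 9 major and 5 of 6 minor photosystem II antenna genes, and 7 of 9 stress-type genes. Leaving out 1 library gave 18 (without T+ normal 1) to 25. The calls of LHCA3, LHCB1.5, LHCB4.2, ELIP2, SEP1 and PSBS ended without T+ normal 1 (edgeR adjusted p from 0.0611 to 0.109), and that of LHCB1.5 also without any 1 of 10 other libraries. That of LHCB4.2 also ended without T+ normal 3 or Gen1 dwarf 1, and that of ELIP2 without T+ normal 3, Gen2 large 2, Gen2 large 3 or WT 1. By edgeR, LHCB7 (adjusted p = 0.0574), LHCB1.4 (0.0824), OHP1 (0.0869), SEP2 (0.232), LHCB2.1 (0.306) and LHCB2.2 (0.353) did not pass.

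In the photosystem I antenna, LHCA1 to LHCA4 form a belt along the core, and LHCA5 and LHCA6 link photosystem I to the NDH complex of cyclic electron flow. LHCA1 (AT3G54890) stood at 1288, 1706 and 1423 CPM in the T+ dwarf samples, 2728, 2394 and 3101 CPM in the T+ normal samples and 2452, 1619 and 1943 CPM in WT. LHCA1 reached 1237, 1378 and 1472 CPM in Gen1 dwarf, 1509, 1329, 1674, 1709 and 1440.2 CPM in Gen2 dwarf and 1731, 1945 and 2349 CPM in Gen2 large samples. All 11 dwarf samples lay below the lowest Gen2 large sample. LHCA2 (AT3G61470) stood at 1247, 1730.4 and 1246 CPM in the T+ dwarf samples, 2661, 2187 and 3258 CPM in the T+ normal samples and 1978, 1458 and 1545 CPM in WT. LHCA2 reached 1109.9, 1092 and 1248 CPM in Gen1 dwarf, 1387, 1372, 1621, 1657 and 1464 CPM in Gen2 dwarf and 1484, 1697 and 2492 CPM in Gen2 large samples. The T+ normal samples were above every dwarf sample, and Gen2 large 3 was above the lowest of them. LHCA3 (AT1G61520) stood at 1458, 2185 and 1736 CPM in the T+ dwarf samples, 3543, 2597 and 2548 CPM in the T+ normal samples and 2061, 1989.9 and 2213 CPM in WT. LHCA3 reached 1572, 1075 and 1725 CPM in Gen1 dwarf, 1788, 1782, 2186, 2255 and 2039 CPM in Gen2 dwarf and 1938, 2262 and 2967 CPM in Gen2 large samples. Gen1 dwarf 2 was the lowest of the 20 samples and T+ normal 1 the highest, with a 3.30-fold gap. LHCA4 (AT3G47470) stood at 1785, 2612 and 2073 CPM in the T+ dwarf samples, 4122, 3344 and 3859.8 CPM in the T+ normal samples and 2830.0, 2218 and 2530.4 CPM in WT. LHCA4 reached 1925, 1851 and 2131 CPM in Gen1 dwarf, 2067, 2265, 2298, 2452 and 2377 CPM in Gen2 dwarf and 2407, 2836 and 3091 CPM in Gen2 large samples. Here the T+ normal samples exceeded all others.

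LHCA5 and LHCA6 are expressed far below the 4 belt proteins, at 92.5 ± 16.8 and 53.9 ± 11.0 RPKM in WT against 1179 to 1951 RPKM. LHCA5 (AT1G45474) stood at 63.3, 76.9 and 74.4 CPM in the T+ dwarf samples, 127, 108 and 121 CPM in the T+ normal samples and 119.8, 87.7 and 89.8 CPM in WT. LHCA5 reached 59.9, 59.5 and 59.9 CPM in Gen1 dwarf, 62.7, 62.2, 71.2, 72.3 and 73.2 CPM in Gen2 dwarf and 79.2, 92.8 and 122 CPM in Gen2 large samples. All 11 dwarf samples stood below the lowest WT sample and below the lowest Gen2 large sample. LHCA6 (AT1G19150) stood at 41.9, 48.7 and 43.2 CPM in the T+ dwarf samples, 118, 90.9 and 103 CPM in the T+ normal samples and 72.8, 48.4 and 66.7 CPM in WT. LHCA6 reached 43.7, 39.0 and 46.2 CPM in Gen1 dwarf, 40.5, 51.2, 54.1, 46.4 and 65.6 CPM in Gen2 dwarf and 68.2, 73.1 and 105 CPM in Gen2 large samples. Its dwarf samples were all below the lowest Gen2 large sample, while 7 of 11 were below the lowest WT sample. LHCA6 had the lowest p of this set over the 6 groups (edgeR adjusted p = 0.000191), before LHCA5 (0.000285).

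In the major photosystem II antenna, LHCB1, LHCB2 and LHCB3 build the trimers that hold most of the chlorophyll b of a leaf. Of the LHCB1 genes, 3 lie side by side on chromosome 1 between 10472280 and 10479114, and LHCB1.4 and LHCB1.5 are neighbours on chromosome 2. LHCB1.1 (AT1G29920) stood at 308, 388 and 467 CPM in the T+ dwarf samples, 831, 887 and 928 CPM in the T+ normal samples and 696, 373 and 535 CPM in WT. LHCB1.1 reached 293, 424 and 399 CPM in Gen1 dwarf, 328, 376, 339, 305 and 356 CPM in Gen2 dwarf and 491, 551 and 902 CPM in Gen2 large samples. Every dwarf sample was below every Gen2 large and every T+ normal sample. LHCB1.2 (AT1G29910) stood at 818, 1029.6 and 843 CPM in the T+ dwarf samples, 1984, 1738 and 2082 CPM in the T+ normal samples and 1490.1, 1072 and 1017 CPM in WT. LHCB1.2 reached 683, 886 and 1025 CPM in Gen1 dwarf, 841, 1028, 953, 899.7 and 806 CPM in Gen2 dwarf and 1118, 1268 and 2159 CPM in Gen2 large samples. Gen2 large 3 was the highest of all samples, above T+ normal. LHCB1.3 (AT1G29930) stood at 6799, 7071 and 6049 CPM in the T+ dwarf samples, 11909.8, 10952 and 11809 CPM in the T+ normal samples and 9482, 6886 and 7973 CPM in WT. LHCB1.3 reached 4419, 5370.1 and 6516 CPM in Gen1 dwarf, 6315, 6405, 8227, 7206 and 6057 CPM in Gen2 dwarf and 7533, 7814 and 13123 CPM in Gen2 large samples. Here too Gen2 large 3 was highest, and Gen1 dwarf 1 lowest. LHCB1.5 (AT2G34420) stood at 1845, 3088 and 2263 CPM in the T+ dwarf samples, 3637, 3135 and 3754 CPM in the T+ normal samples and 2496, 2609 and 2021 CPM in WT. LHCB1.5 reached 1794, 1747 and 2342 CPM in Gen1 dwarf, 2238, 2004, 2563, 2476 and 1830.0 CPM in Gen2 dwarf and 2326, 2609.8 and 4277 CPM in Gen2 large samples. The T+ normal samples exceeded all dwarf samples by a narrow margin.

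LHCB2.3 (AT3G27690) stood at 57.9, 71.3 and 58.9 CPM in the T+ dwarf samples, 110.0, 129 and 124 CPM in the T+ normal samples and 80.7, 56.5 and 101 CPM in WT. LHCB2.3 reached 50.2, 68.7 and 84.3 CPM in Gen1 dwarf, 82.3, 91.6, 99.6, 111 and 94.7 CPM in Gen2 dwarf and 70.9, 94.7 and 108 CPM in Gen2 large samples. In Gen2 its dwarf and large samples overlapped, unlike in T+. LHCB3 (AT5G54270) stood at 826, 1465 and 1346 CPM in the T+ dwarf samples, 2756, 2448 and 2434 CPM in the T+ normal samples and 1671, 1310.1 and 1489 CPM in WT. LHCB3 reached 1012, 918 and 1331 CPM in Gen1 dwarf, 1258, 1378, 1391, 1422 and 1557 CPM in Gen2 dwarf and 1274, 1484 and 2084 CPM in Gen2 large samples. The T+ normal samples stood above all others, and those of Gen2 large reached at most 2084 CPM. The other 3 members of the set did not vary across the groups past the threshold. LHCB2.1 ranged from 284 to 518 CPM over the 20 samples, LHCB2.2 from 239 to 404 CPM and LHCB1.4 from 236 to 695 CPM. LHCB1.1 had the lowest p of the major antenna over the 6 groups (edgeR adjusted p = 0.000532). LHCB2.1 and LHCB2.2 are close copies: 10.7% and 13.7% of their 100-base exon windows recur elsewhere in the genome, against 1.51 to 4.44% for the LHCB1 genes and 0 for the other members. The files list no reads aligned to several places, and how such reads were handled was not found. Levels of these 7 genes are therefore less certain.

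In the minor photosystem II antenna, LHCB4, LHCB5 and LHCB6 are monomers that connect the trimers to the core, and LHCB4.3 is also known as LHCB8. LHCB4.1 (AT5G01530) stood at 1064, 1392 and 1149.6 CPM in the T+ dwarf samples, 2489.5, 2089 and 2184 CPM in the T+ normal samples and 1908, 1298 and 1544 CPM in WT. LHCB4.1 reached 968, 834 and 1106 CPM in Gen1 dwarf, 1229, 1221, 1414, 1352 and 1129 CPM in Gen2 dwarf and 1375, 1535 and 2661 CPM in Gen2 large samples. Gen2 large 3 was the highest sample. LHCB4.2 (AT3G08940) stood at 479, 793 and 532 CPM in the T+ dwarf samples, 1005, 854 and 1022 CPM in the T+ normal samples and 650.0, 571 and 642 CPM in WT. LHCB4.2 reached 447, 468 and 629 CPM in Gen1 dwarf, 572, 573, 733, 728 and 593 CPM in Gen2 dwarf and 506, 611 and 795 CPM in Gen2 large samples. T+ normal exceeded all other samples. LHCB4.3 (AT2G40100) stood at 22.5, 36.8 and 35.4 CPM in the T+ dwarf samples, 64.1, 70.0 and 61.7 CPM in the T+ normal samples and 54.4, 35.6 and 41.9 CPM in WT. LHCB4.3 reached 34.3, 17.3 and 36.3 CPM in Gen1 dwarf, 42.5, 37.2, 51.2, 54.5 and 60.0 CPM in Gen2 dwarf and 46.2, 45.0 and 81.9 CPM in Gen2 large samples. Gen1 dwarf 2 stood lowest, 4.73-fold below Gen2 large 3.

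LHCB5 (AT4G10340) stood at 1857, 2918 and 2418 CPM in the T+ dwarf samples, 5419, 4449 and 5007 CPM in the T+ normal samples and 3541, 2568 and 3201 CPM in WT. LHCB5 reached 2272, 1934 and 2366 CPM in Gen1 dwarf, 2605, 2723, 3022, 3151 and 3131 CPM in Gen2 dwarf and 3007, 3619 and 3916 CPM in Gen2 large samples. Again T+ normal exceeded all other samples, and LHCB5 had the lowest p of the set over the groups (edgeR adjusted p = 0.000800). LHCB6 (AT1G15820) stood at 413, 696 and 604 CPM in the T+ dwarf samples, 1367, 1181 and 1429 CPM in the T+ normal samples and 1019, 718 and 733 CPM in WT. LHCB6 reached 512, 400.0 and 653 CPM in Gen1 dwarf, 609, 657, 781, 668 and 660.3 CPM in Gen2 dwarf and 735, 806 and 1514 CPM in Gen2 large samples. Of the 11 dwarf samples 10 lay below the lowest WT sample. LHCB7, a rarely studied relative, ranged from 13.9 to 24.7 CPM, with its highest sample in WT.

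**Figure D3:**
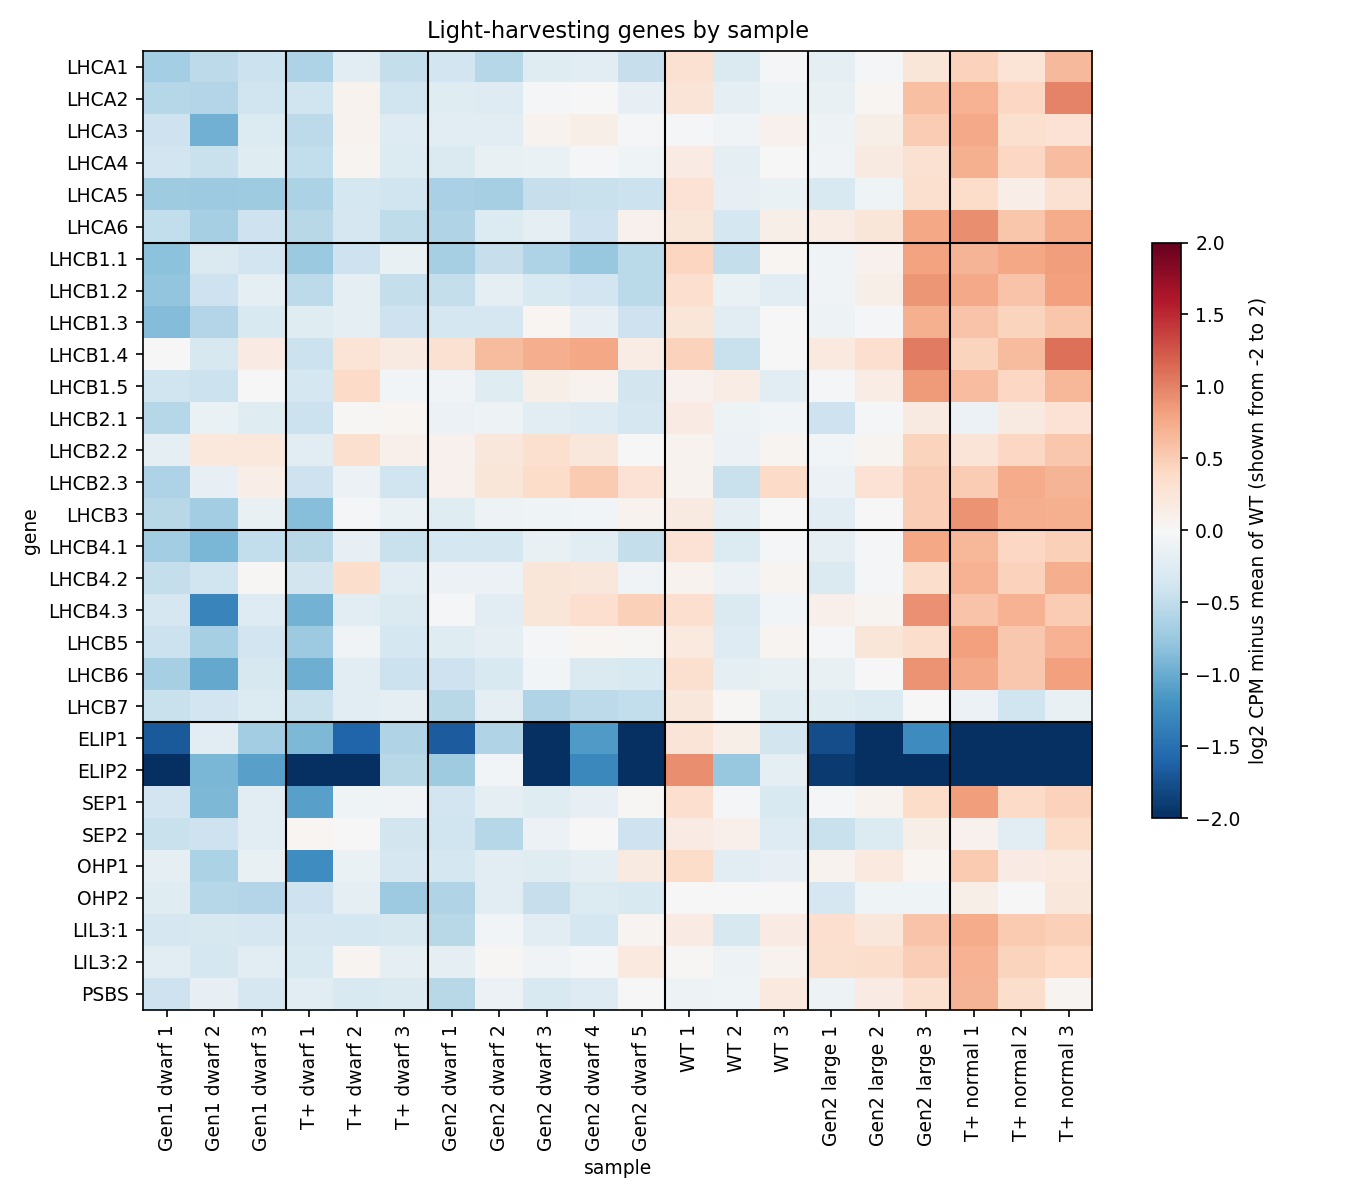
Level of each member (rows, by role) in each of the 20 samples (columns, by group) as log2 CPM minus the mean of the WT samples, with colours cut at −2 and 2. Antenna genes are mostly red in T+ normal and Gen2 large 3 and mostly blue in the dwarf groups, while ELIP1 and ELIP2 are dark blue in T+ normal.

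Among the stress-type genes, the early light-induced proteins ELIP1 and ELIP2 bind pigment under light stress. ELIP1 (AT3G22840) stood at 10.8, 6.66 and 13.3 CPM in the T+ dwarf samples, 1.07, 2.62 and 1.22 CPM in the T+ normal samples and 24.2, 21.8 and 15.6 CPM in WT. ELIP1 reached 6.30, 17.2 and 12.4 CPM in Gen1 dwarf, 6.37, 13.3, 3.21, 9.16 and 4.33 CPM in Gen2 dwarf and 5.89, 4.202 and 8.41 CPM in Gen2 large samples. The T+ normal samples were the lowest of all 20. ELIP2 (AT4G14690) stood at 0.490, 0.365 and 1.48 CPM in the T+ dwarf samples, 0.0498, 0.312 and 0.137 CPM in the T+ normal samples and 4.21, 1.29 and 1.92 CPM in WT. ELIP2 reached 0.454, 1.16 and 1.02 CPM in Gen1 dwarf, 1.33, 2.102, 0.283, 0.883 and 0.160 CPM in Gen2 dwarf and 0.563, 0.118 and 0.370 CPM in Gen2 large samples. The lowest library held 4 counts of ELIP2, in T+ normal 1, and the highest 513, in WT 1. SEP1 (AT4G34190) stood at 86.9, 175 and 175 CPM in the T+ dwarf samples, 330.0, 241 and 253 CPM in the T+ normal samples and 232, 181 and 149 CPM in WT. SEP1 reached 141, 98.7 and 158 CPM in Gen1 dwarf, 141, 160.4, 157, 164 and 188 CPM in Gen2 dwarf and 179, 194 and 238 CPM in Gen2 large samples. SEP1 and SEP2 are stress-enhanced proteins, not the floral SEPALLATA genes, and for SEP1 the T+ normal samples exceeded all others. SEP2 ranged from 54.6 to 104 CPM and did not pass the test over the groups.

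The one-helix proteins OHP1 and OHP2 act together in the assembly of the photosystem II reaction centre. OHP1 (AT5G02120) stood at 21.2, 45.7 and 39.8 CPM in the T+ dwarf samples, 71.7, 56.3 and 57.2 CPM in the T+ normal samples and 64.8, 43.5 and 44.7 CPM in WT. OHP1 reached 44.3, 32.5 and 45.0 CPM in Gen1 dwarf, 39.3, 43.2, 42.3, 44.3 and 56.7 CPM in Gen2 dwarf and 52.6, 57.1 and 51.3 CPM in Gen2 large samples. T+ dwarf 1 was the lowest sample, and T+ normal overlapped with Gen2 dwarf. OHP2 (AT1G34000) stood at 68.1, 79.6 and 55.2 CPM in the T+ dwarf samples, 99.1, 90.6 and 107 CPM in the T+ normal samples and 91.8, 91.4 and 90.6 CPM in WT. OHP2 reached 77.4, 61.7 and 60.5 CPM in Gen1 dwarf, 59.8, 79.0, 66.0, 75.3 and 73.7 CPM in Gen2 dwarf and 72.0, 85.8 and 85.7 CPM in Gen2 large samples. All 11 dwarf samples were below the lowest WT sample. LIL3 proteins anchor enzymes of late chlorophyll synthesis in the membrane.

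LIL3:1 (AT4G17600) stood at 106, 104 and 107 CPM in the T+ dwarf samples, 223, 191 and 185 CPM in the T+ normal samples and 149, 106 and 149 CPM in WT. LIL3:1 reached 105, 107 and 105 CPM in Gen1 dwarf, 90.7, 127, 115, 105 and 138 CPM in Gen2 dwarf and 168, 156 and 198 CPM in Gen2 large samples. The dwarf samples were all below the lowest Gen2 large sample. LIL3:2 (AT5G47110) stood at 135, 172 and 145 CPM in the T+ dwarf samples, 269, 226 and 219 CPM in the T+ normal samples and 169, 156 and 175 CPM in WT. LIL3:2 reached 142, 130.1 and 142 CPM in Gen1 dwarf, 146, 169, 159, 164 and 189.6 CPM in Gen2 dwarf and 207, 213 and 234 CPM in Gen2 large samples. The same held for LIL3:2, whose WT samples overlapped with the dwarf samples. PSBS (AT1G44575) stood at 935, 871 and 882 CPM in the T+ dwarf samples, 1728, 1378 and 1126 CPM in the T+ normal samples and 1002, 1021 and 1230.4 CPM in WT. PSBS reached 807, 965 and 859 CPM in Gen1 dwarf, 734, 997, 869.7, 901 and 1091 CPM in Gen2 dwarf and 1009, 1210.4 and 1346 CPM in Gen2 large samples. T+ normal 1 was the highest sample of PSBS, and T+ normal 3 was within the range of WT. LIL3:1 had the lowest p of the stress-type genes over the groups (edgeR adjusted p = 0.000314).

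The comparison of dwarf with normal plants that both carry the transgene gave the most called members of all pairwise comparisons. In T+ dwarf plants 22 members fell and 1 rose (edgeR adjusted p under 0.05 over all genes). Of all tested genes 15.0% were called, 7.79% lower and 7.21% higher. The median log2 difference was −0.80 over the members and 0.01 over all genes. The fallen members were 16 of 21 antenna genes (all 6 of photosystem I, 5 of 9 major and 5 of 6 minor genes of photosystem II) and 6 of 9 stress-type genes. ELIP1 went the other way.

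LHCA6 fell most, with a log2 difference of −1.22 ± 0.18 (SE; edgeR adjusted p = 0.000659), from 104 ± 13.5 CPM in normal to 44.6 ± 3.61 CPM in dwarf plants (SD, n = 3 each). LHCB6 stood at −1.22 ± 0.25 (edgeR adjusted p = 0.00337) and LHCB1.1 at −1.18 ± 0.23 (0.00228). LHCB1.2 (−1.11 ± 0.22), LHCB3 (−1.07 ± 0.21), LHCB4.3 (−1.05 ± 0.28) and LHCB5 (−1.05 ± 0.18) followed. The smallest called differences of antenna genes were those of LHCA3 (−0.69 ± 0.20) and LHCB4.2 (−0.68 ± 0.20). The other called antenna genes lay between −0.95 and −0.73. Of the antenna genes not called, LHCB1.4 stood at −0.71 ± 0.27, LHCB1.5 at −0.55 ± 0.23, LHCB2.2 at −0.32 ± 0.16, LHCB2.1 at −0.24 ± 0.16 and LHCB7 at −0.07 ± 0.13.

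Among stress-type genes ELIP1 rose by 2.65 ± 0.52 (edgeR adjusted p = 0.0031), from 1.64 ± 0.857 CPM in normal to 10.3 ± 3.37 CPM in dwarf plants (SD, n = 3 each). ELIP2 stood at 2.23 ± 0.90 without passing (0.101), though its 3 dwarf samples were all above the 3 normal ones. LIL3:1 (−0.92 ± 0.15), SEP1 (−0.92 ± 0.23), OHP1 (−0.79 ± 0.22), LIL3:2 (−0.66 ± 0.12), PSBS (−0.65 ± 0.17) and OHP2 (−0.55 ± 0.13) fell with the antenna. SEP2, at −0.19 ± 0.18, was not called. In all, 24 members had every dwarf sample below every normal sample and 2 had every dwarf sample above, against 15.7% and 17.3% of all genes.

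Of the 23 calls, 15 held without any 1 library, among them ELIP1 and LHCA6, and the counts ran from 18 to 24. Without T+ normal 1 the calls of LHCA3 (edgeR adjusted p = 0.132), LHCB4.2, SEP1, OHP1 and PSBS ended. The calls of LHCA3, LHCB4.2, LHCB4.3, SEP1 and OHP1 ended without T+ dwarf 1, those of LHCA3, LHCB1.3, LHCB4.2 and OHP2 without T+ dwarf 3, and that of LHCB4.2 without T+ normal 3.

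**Figure D4:**
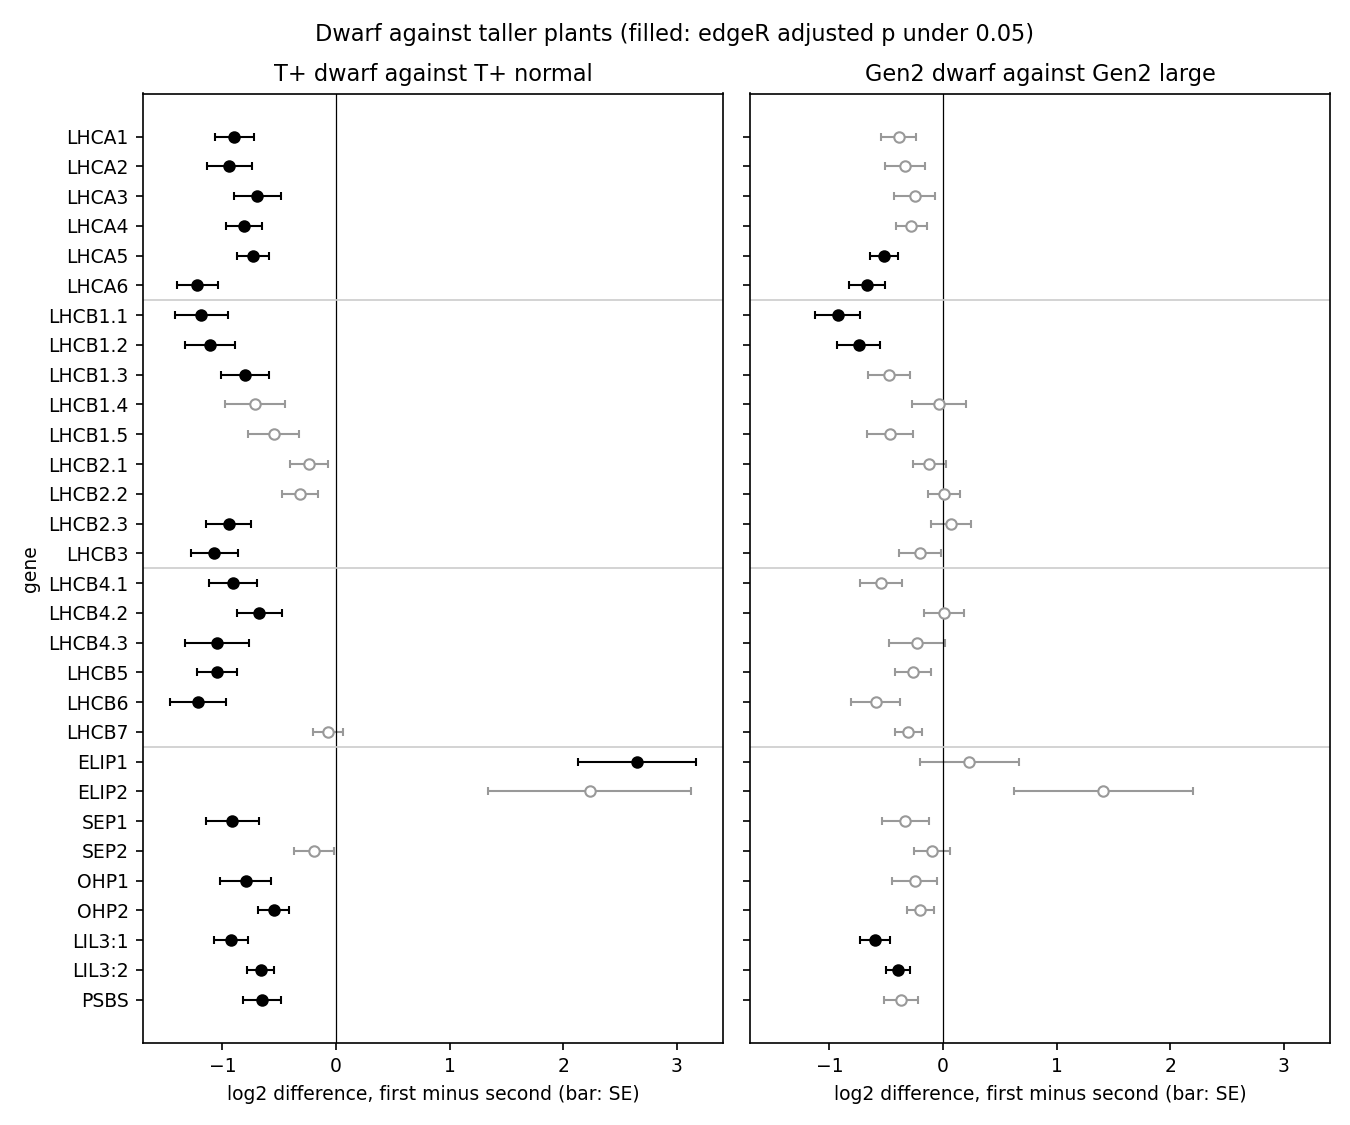
Log2 difference of each member (rows, by role) between T+ dwarf and T+ normal plants (left) and between Gen2 dwarf and Gen2 large plants (right), with SE bars and filled points for an edgeR adjusted p under 0.05. On the left 22 members are filled below 0 and ELIP1 above it, and on the right 6 members are filled, all below 0.

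Of 23 genes for the import, assembly and energy regulation of antenna proteins 13 fell and none rose in the same comparison (median −0.56). LTD, which hands antenna proteins to the plastid signal recognition particle, stood at −0.89 ± 0.15 (edgeR adjusted p = 0.00108). CHLP, the geranylgeranyl reductase that supplies the phytol tail of chlorophyll, was lower at −0.97 ± 0.16, and the violaxanthin de-epoxidase VDE at −0.72 ± 0.14. CPSRP43, the chaperone of antenna proteins in that particle, was lower at −0.73 ± 0.19 (0.0128). The lutein synthesis genes LUT1 (−0.60 ± 0.13), LUT2 (−0.60 ± 0.14) and LUT5 (−0.58 ± 0.12) were called lower as well. Among 13 chlorophyll synthesis genes 12 fell (median −0.73), with CHLM, the methyltransferase of the magnesium branch, at −1.05 ± 0.16. Of 21 nuclear-encoded photosystem core subunits 15 fell (median −0.77), led by PSAN (−1.38 ± 0.23). Without T+ normal 1 there remained 10 of the 13, 7 of the 12 and 12 of the 15 calls, LTD, CHLP, VDE, CHLM and PSAN and the LUT genes among them. In the import and core lists more calls ended without T+ dwarf 1 than without T+ normal 1, that of CPSRP43 among them.

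Transcription and light signalling genes split, with 3 of 25 higher and 3 lower (median 0.15). SIG5, a plastid sigma factor induced by blue light and stress, rose by 1.39 ± 0.25 (adjusted p = 0.00145, edgeR). SIG1 (−0.63 ± 0.14), SIG2 (−0.62 ± 0.16) and GUN5 (−0.93 ± 0.22) fell, and PIF3 (0.56 ± 0.17) and BBX21 (0.52 ± 0.15) rose. GUN5 was counted in this list and not among the chlorophyll synthesis genes. The activators of antenna genes were not called: GLK1 stood at 0.39 ± 0.16, GLK2 at 0.09 ± 0.18 and HY5 at 0.34 ± 0.22. Of 9 tested high-light response genes 4 rose, the heat shock gene HSP70 (2.05 ± 0.27), the anthocyanin regulator PAP1 (2.26 ± 0.34) and the flavonoid enzymes F3H (1.76 ± 0.45) and CHS (1.24 ± 0.34), and PSY fell (−0.55 ± 0.16; median of the 9 0.07). The calls of SIG5, SIG1, GUN5, HSP70 and PAP1 held without any 1 library. Those of SIG2, PIF3, BBX21, F3H, CHS and PSY ended without T+ normal 1. The calls of F3H, SIG2, PIF3 and PSY also ended without T+ dwarf 3, those of BBX21, CHS and PSY without T+ dwarf 1, those of BBX21 and PIF3 without T+ dwarf 2, those of BBX21 and CHS without T+ normal 3, and that of PIF3 without T+ normal 2.

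The lists of leaf mesophyll, floral organ and senescence markers also moved with this comparison, the first of them made up of photosynthesis genes. The 6 leaf mesophyll markers all fell (median −1.14), with a sum of 10333 to 12500.4 CPM in T+ dwarf against 16392 to 28032 CPM in T+ normal samples. Of 7 floral organ markers AP1, AP3 and PI rose and AG fell, with a sum of 1.85 to 5.06 against 1.29 to 1.98 CPM. Of 6 senescence markers ORE1 (1.23 ± 0.37) and PPH (0.66 ± 0.12) rose, and the sum was 198 to 278 against 128 to 147 CPM. Without T+ normal 1 the calls of RBCS1A, RBCS3B, AP1, AP3, PI and ORE1 ended. Those of RBCS3B, AP1, AP3, PI and ORE1 also ended without T+ dwarf 3, those of AP1, AP3, PI and ORE1 without T+ normal 3, those of PI and ORE1 without T+ normal 2, and that of PI without T+ dwarf 1 or T+ dwarf 2. None of the 2 tested root markers was called. The part of these tissues and of age in the members' differences was not tested.

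**Figure D5:**
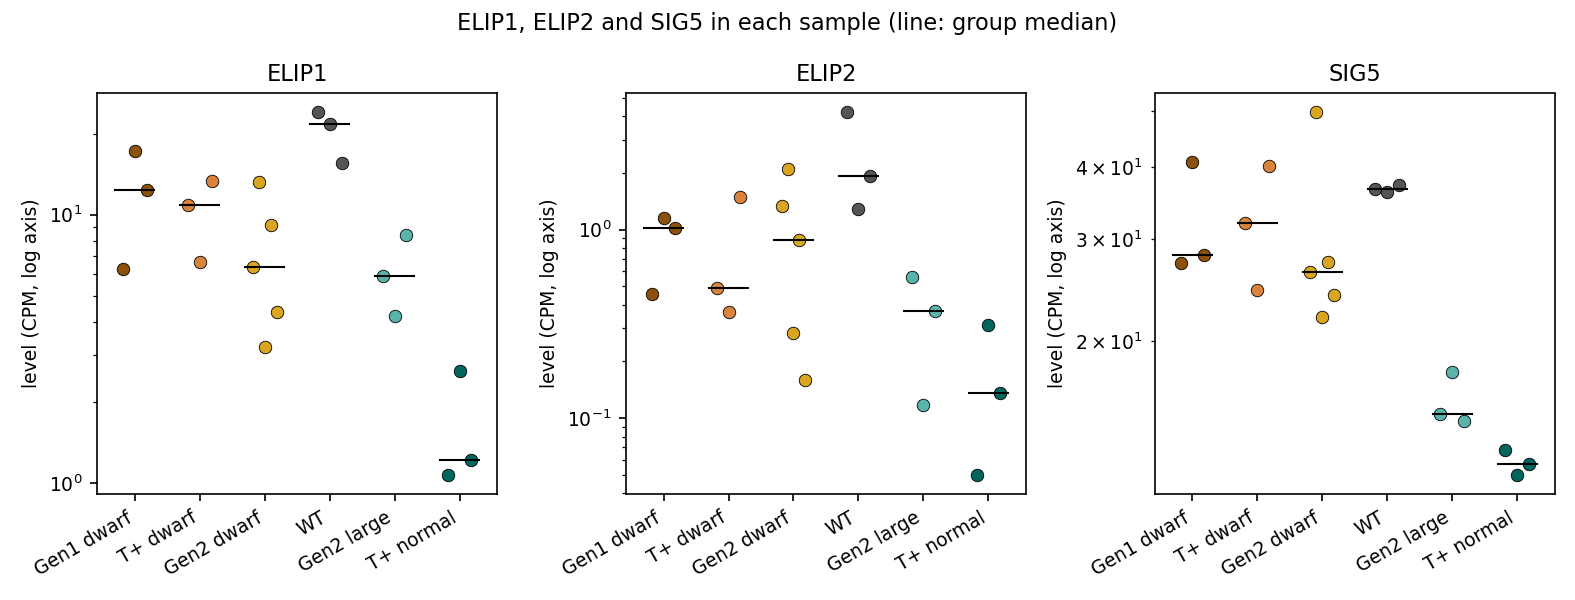
Levels of ELIP1, ELIP2 and SIG5 in each sample (points, CPM on log axes) by group, with the group median as a line. All 3 T+ normal samples are below every other sample for ELIP1, at 1.07 to 2.62 CPM, and for SIG5, at 11.7 to 13.0 CPM.

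Among plants without the transgene, 6 members fell in Gen2 dwarf against Gen2 large plants and none rose, where 13.5% of all genes were called and 4.79% fell. They were LHCB1.1 (−0.93 ± 0.20; edgeR adjusted p = 0.00575), LHCB1.2 (−0.74 ± 0.19), LHCA6 (−0.67 ± 0.16), LHCA5 (−0.52 ± 0.13), LIL3:1 (−0.60 ± 0.13) and LIL3:2 (−0.40 ± 0.10). The median was −0.29 over the members and 0.00 over all genes. The minor antenna gave no call, with LHCB6 at −0.59 ± 0.22 and LHCB4.1 at −0.55 ± 0.18 the nearest. Without Gen2 large 3, the sample with the highest antenna levels of its group, none of the 6 stayed called. LHCB1.1 then stood at −0.61 (edgeR adjusted p = 0.0699) and LIL3:1 at −0.50 (0.0522). In all, 7 members had every dwarf sample below every large sample, against 11.7% of all genes.

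ELIP1 stood at 0.23 ± 0.44 and ELIP2 at 1.41 ± 0.79 in this comparison, both without a call and with overlapping samples. CPSRP43 (−0.59 ± 0.16), CPFTSY, the receptor of the plastid signal recognition particle (−0.39 ± 0.11), and LTD (−0.41 ± 0.13) fell. SGR1, which starts the breakdown of chlorophyll a, rose by 1.202 ± 0.20 (edgeR adjusted p = 0.00106) as the only gene of 23 in that list to do so. SIG5 rose by 0.92 ± 0.22, from 15.8 ± 1.69 to 29.9 ± 11.3 CPM (SD, n = 3 and 5), while GLK1 (−0.21 ± 0.14), GLK2 (0.14 ± 0.16) and HY5 (−0.06 ± 0.19) were not called. The high-light genes ZAT12 (1.73 ± 0.42) and HSP70 (1.198 ± 0.24) rose. Core subunits gave 2 falls of 21, PSBO1 and PSBP1, and chlorophyll synthesis 2 of 13, CHLM and CHLG. SGR1 and HSP70 held without any 1 library. The calls of CPSRP43, CPFTSY, LTD, SIG5, PSBO1, PSBP1, CHLM and CHLG ended without Gen2 large 3 (edgeR adjusted p from 0.0634 to 0.255), and that of ZAT12 without Gen2 large 2. Those of CPSRP43, LTD, PSBO1, PSBP1 and CHLM also ended without Gen2 dwarf 2, those of CPFTSY, LTD and SIG5 without Gen2 large 1, those of LTD, PSBP1 and CHLG without Gen2 large 2, those of CPFTSY, LTD and CHLG without Gen2 dwarf 3, and those of LTD and CHLG without Gen2 dwarf 1 or Gen2 dwarf 4.

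All 6 senescence markers rose with the dwarf state in Gen2 (median 1.68), with a sum of 252 to 304 CPM against 123 to 146 CPM. NAP, a NAC factor of senescence, stood at 2.33 ± 0.41 and PPH, a chlorophyll breakdown enzyme, at 0.69 ± 0.11. Mesophyll markers summed to 10687 to 14790.4 against 15507 to 23943 CPM, with RBCS1A called lower of 6 (median −0.47), and of the floral markers AG fell. The calls of NAP, PPH, ORE1, SEN1 and AG held without any 1 library, and those of RBCS1A, SAG12 and SAG13 ended without Gen2 large 3. SAG12 also lost its call without any 1 of the other 7 libraries, and SAG13 without any but Gen2 dwarf 1. Their part in the members' differences was not tested.

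In edgeR's interaction test of the dwarf effects with and without the transgene none of the 30 members passed, where 0.654% of all genes were called. At an unadjusted p under 0.05 there were 10 (12.6% of all genes), and DESeq2 called 4 (2.98%), namely ELIP1, LHCB2.3, LHCB5 and LHCB3. The median difference of effects was −0.36 over the members and −0.01 over all genes. LHCB2.3 stood nearest among the antenna genes: its dwarf effect was −0.95 ± 0.20 in T+ plants and 0.07 ± 0.18 in Gen2, a difference of −1.02 ± 0.27 (edgeR adjusted p = 0.0851). For ELIP1 the difference was 2.42 ± 0.66 (0.105). Without Gen2 dwarf 2 edgeR called 1 member. PAP1 was the only high-light gene called, at 2.02 ± 0.43, and its call ended without any 1 of 11 libraries, T+ normal 1 among them.

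Each group was also set against WT. These 5 comparisons share the 3 WT samples, so they are given side by side and are not independent. The T+ normal samples likewise enter both their own comparison with WT and that with T+ dwarf plants. In T+ normal plants LIL3:2 rose and ELIP1 and ELIP2 fell, 3 called members where 1.34% of all genes were called. ELIP1 differed by −3.65 ± 0.54 (edgeR adjusted p = 0.00415), from 20.5 ± 4.43 to 1.64 ± 0.857 CPM (SD, n = 3 each), and ELIP2 by −3.90 ± 0.93 (0.0464), from 2.48 ± 1.54 to 0.166 ± 0.133 CPM. LIL3:2 rose by 0.52 ± 0.12 (0.0347). ELIP1 was called without any 1 library. The call of ELIP2 held only without WT 3, and that of LIL3:2 ended without T+ normal 1 or WT 2. Without WT 1 there were 8 called members, without T+ normal 1 or WT 2 only ELIP1, and DESeq2 called 13 (5.37% of all genes).

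No antenna gene was called by edgeR in T+ normal against WT, although 17 of 21 were higher at an unadjusted p under 0.05, as 7.32% of all genes were. LHCA6 came nearest (0.73 ± 0.18; edgeR adjusted p = 0.0517), then LHCB5 (0.68 ± 0.18; 0.0591) and LHCB3 (0.77 ± 0.21; 0.0651). The antenna median was 0.58 and that of all genes −0.02. For 19 members every T+ normal sample was above every WT sample, against 7.09% of all genes, and for 2 every sample was below, against 8.19%. Of the other lists, CHLP (0.74 ± 0.16), CHLM (0.68 ± 0.16) and RBCS2B (0.89 ± 0.22) were called higher. SIG5 (−1.57 ± 0.25), F3H (−2.41 ± 0.46), PAP1 (−1.81 ± 0.33), CHS (−1.79 ± 0.34) and HSP70 (−1.34 ± 0.27) were called lower, as ELIP1 was. Of these calls that of SIG5 held without any 1 library, all others ended without WT 2, and all but HSP70 among those also without T+ normal 1. HSP70 and RBCS2B also ended without T+ normal 2, HSP70 and CHS without T+ normal 3, and RBCS2B without WT 1. The 6 leaf mesophyll markers were all higher, 4 at an unadjusted p under 0.05, with a median of 0.68, and their part in the antenna's difference was not tested. GLK1 stood at −0.26 ± 0.16, GLK2 at −0.24 ± 0.18, HY5 at −0.73 ± 0.22 and CPSRP43 at 0.47 ± 0.19, none of them called.

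In T+ dwarf against WT no member was called by edgeR or DESeq2, which called 0.0507% and 0.553% of all genes. At an unadjusted p under 0.05 there were 9, all lower (6.06% of all genes), and the members' median was −0.35 against −0.01. LHCA5 (−0.47 ± 0.14) and OHP2 (−0.43 ± 0.13) had the lowest p. ELIP1 stood at −0.998 ± 0.48, with all T+ dwarf samples below all WT samples. None of the following markers was called. The 6 leaf mesophyll markers were all lower (median −0.50, 3 at an unadjusted p under 0.05) and the 6 senescence markers all higher (0.65, 2 at that p). Of the floral organ markers 6 of 7 were higher (median 2.16, 4 at that p), with AG lower at that p. The floral markers summed to only 1.85 to 5.06 CPM in T+ dwarf and 1.24 to 2.05 CPM in WT samples, which overlapped. The part of these markers was not tested.

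Gen1 dwarf plants had the lowest median antenna share of the 6 groups, 1.99% of gene counts. Against WT, LHCA5 fell, with a log2 difference of −0.73 ± 0.14 (edgeR adjusted p = 0.0126), from 99.1 ± 18.0 to 59.8 ± 0.194 CPM (SD, n = 3 each), as the only called member where 2.01% of all genes were called. Its call ended without WT 1 (edgeR adjusted p = 0.0880), and without WT 2 there were 3 called members. DESeq2 called 6 (5.23% of all genes), among them LHCA1 and LHCB4.1. At an unadjusted p under 0.05 there were 18, all lower (7.09% of all genes), with 6 of 6 photosystem I antenna genes among them. The median was −0.46 over the members and 0.00 over all genes, and 16 members had every Gen1 sample below every WT sample, against 8.24% of all genes. PSAH1, a core subunit next to the mobile antenna, was called lower (−0.75 ± 0.16), and the senescence markers ORE1 (2.19 ± 0.38), NAP (1.74 ± 0.42), SEN1 (1.64 ± 0.38) and PPH (0.57 ± 0.12) were called higher, with a summed level of 289 to 369 against 144 to 215 CPM. These 5 calls ended without WT 1. Those of PSAH1, NAP, SEN1 and PPH also ended without Gen1 dwarf 1 or Gen1 dwarf 3, those of PSAH1, SEN1 and PPH without Gen1 dwarf 2, those of NAP and PPH without WT 3, and that of SEN1 without WT 2. The leaf mesophyll markers, none of them called, summed to 9885 to 11536 CPM in Gen1 dwarf against 12131 to 16956 CPM in WT samples. The part of these and of the senescence markers in the result was not tested.

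In Gen2 dwarf against WT edgeR called no member, where 0.0968% of all genes were called. At an unadjusted p under 0.05 there were 6, all lower (5.77% of all genes), and DESeq2 called LHCA5 and LHCB7 (1.75% of all genes). LHCA5 stood at −0.54 ± 0.13 (edgeR adjusted p = 0.0987), LHCB7 at −0.48 ± 0.12 and ELIP1 at −1.51 ± 0.42. The members' median was −0.22. The 6 senescence markers were all higher (median 1.23), 5 at an unadjusted p under 0.05 and none of them called, and their part was not tested.

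In Gen2 large against WT edgeR again called no member, where 0.963% of all genes were called. At an unadjusted p under 0.05 there were 5 (15.1% of all genes), and DESeq2 called LIL3:2 higher and ELIP1 and ELIP2 lower (3.42% of all genes). ELIP1 stood at −1.74 ± 0.49 (edgeR adjusted p = 0.106), ELIP2 at −2.82 ± 0.87 (0.134) and LIL3:2 at 0.39 ± 0.12 (0.122). SIG5 was called lower, at −1.22 ± 0.24 (0.0266), the only one of 25 transcription and light signalling genes to pass here, and its call ended without any 1 Gen2 large library or WT 2. The median of the antenna genes was 0.19. The leaf mesophyll markers summed to 15507 to 23943 CPM in Gen2 large against 12131 to 16956 CPM in WT samples. The senescence markers summed to 123 to 146 CPM against 144 to 215 CPM, and the samples overlapped in both sums. None of these markers was called, and their part was not tested.

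Among the 3 dwarf groups no member was called in either comparison made. Between Gen1 dwarf and T+ dwarf, siblings without and with the transgene, edgeR called none of the 30 members, and 0.00461% of all genes. None had an unadjusted p under 0.05 (4.85% of all genes), and DESeq2 called none (0.157%). Differences ran from −0.31 (LHCB4.1) to 0.22 (ELIP1), with SE between 0.12 and 0.82. Between Gen2 dwarf and Gen1 dwarf edgeR and DESeq2 called none either (0.235% and 1.57% of all genes). At an unadjusted p under 0.05, 7 members were higher (3.93% of all genes), and the median was 0.21. The largest difference was that of LHCB4.3, at 0.74 ± 0.25 (edgeR adjusted p = 0.3). ELIP1 lay nearly as far in the other direction, at −0.73 ± 0.42.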

How the data were processed

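The RNA was sequenced as 100-bp paired reads of TruSeq RNA v2 libraries, a kit that does not mark strand, per the labels' protocols. The submitters' processing notes name Trim Galore 0.4.1, STAR 2.7.0a and the build TAIR10. The tool that counted reads per gene, and its strand setting, were not found in the labels. The deposited values are whole-number counts per gene in 20 files. Lines for reads without a gene (0.776 to 1.14% of gene counts) or with several (0.264 to 0.36%) were left out, and reads aligned to more than 1 place are listed at 0 in every file. A count of 0 allows up to 3 counts, or 0.0246 to 0.0678 CPM by library, for counting error alone.

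From these counts edgeR 4.0.16 kept genes by filterByExpr (minimum count 10), scaled them by TMM and fitted all 20 samples in 1 quasi-likelihood model (21703 genes, 14 residual degrees of freedom, biological coefficient of variation 0.225). Calls are at a Benjamini-Hochberg adjusted p under 0.05 over all genes. DESeq2 1.42.0, other scalings and filters, the compared groups alone, a replicate block and fits without 1 library were alternatives. Counts for T+ dwarf against WT were simulated with the same spread for every gene, unlike the data (21297 genes tested). The edgeR fit called 65.0% of 100 tested genes with a log2 change of 1, 97.9% of 96 with a change of 2, and 10 unchanged genes. These shares need not hold for the data. Samples labelled alike differed beyond sampling noise, so each counted once. No overlap means that every sample of a group lies above or below every sample of the other.

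The members and gene lists were chosen with earlier results of these data known. Named genes are members called in any test or with the lowest p of their role, and called genes of the other lists (at most 6 a list and comparison) with GLK1, GLK2, HY5, CPSRP43 and PPD3. Exon lengths and promoters come from RefSeq TAIR10.1. Of the members, LHCA4, LHCA5, LHCB1.3, LHCB1.5, LHCB2.3, LHCB3, LHCB4.2, LHCB6, SEP1, SEP2, OHP1, OHP2 and LIL3:1 overlap another annotated gene. The kit does not mark strand, so reads in these stretches cannot be told apart by it. SEP1 overlaps a gene on the same strand.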

Additional observations from a re-analysis of the deposited data

Results flagged for a closer look

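LHCB7 was set apart by 1 sample in Gen2 dwarf plants. Gen2 dwarf 2 stood at 18.4 CPM against 13.9 to 15.0 CPM in the other 4 samples, and on the log2 CPM scale its gap to the nearest of them was 0.730 of the whole range of the group, above Dixon's limit for 5 samples. Of 30 such group values, 1 was set apart, where chance gives about 1 in 20.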

How the results depend on the processing

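The 22 falls and the rise of ELIP1 in T+ dwarf against T+ normal plants kept their direction under every alternative run, with 18 to 24 called members without 1 library. DESeq2 called 25 members in T+ dwarf against T+ normal plants (19.3% of all genes) and 27 over the 6 groups (31.4%). Against WT it called 13 in T+ normal, 6 in Gen1 dwarf, 2 in Gen2 dwarf and 3 in Gen2 large plants. It called 10 in Gen2 dwarf against Gen2 large (18.8%) and 4 in the interaction. Each of these counts was above that of edgeR. With the compared groups alone in the fit, 1 member was called in T+ normal against WT, 0 in Gen1 dwarf against WT, 1 in Gen2 large against WT and 1 in the interaction, while T+ dwarf against T+ normal kept 18 of 23 calls (those of LHCA3, LHCB4.2, SEP1, OHP1 and PSBS ended) and Gen2 dwarf against Gen2 large all 6. Without 1 library, against WT the counts ran from 1 to 8 for T+ normal plants, 0 to 3 for Gen1 dwarf plants, and elsewhere from 0 to 8 in Gen2 dwarf against Gen2 large and 0 to 1 in the interaction. The cause of these moves was not tested. Over the 33 called differences of single members and all alternatives, 367 values kept the call, 41 lost it and none reversed. Members that gained a call are not in this tally. The call of ELIP2 in T+ normal against WT also ended with no filter on low counts. Other scalings moved the median of all genes by at most 0.03 on the log2 scale. With the replicate block, 23 members were called in T+ dwarf against T+ normal, 2 in T+ normal against WT, 5 in Gen2 dwarf against Gen2 large and 22 over the 6 groups. Shares of all genes called were worked out for the main edgeR fit and DESeq2 only. The counts of the other fits may therefore have moved with the calls of all genes. The replicate numbers showed no clear pairing of samples. Of 45 pairs with the same number, 8 had a correlation of deviations over 0.1 (median 0.0237), and of 120 with different numbers 22 (median −0.00753). Pairing between single groups was not tested. Levels of ELIP2 rest on 4 to 513 counts a library, and near-copies limit LHCB1 and LHCB2.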
